A study of Mus musculus with 15 samples.

Results

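The 10 genes described here are targets or components of the Hippo pathway and of its effector YAP: Ctgf, Cyr61, Ankrd1, Axl, Crim1, Amotl1, Amotl2, Ajuba, Lats2 and Tead1. They were chosen by name and their rows were taken from a table of fragment counts per gene, so they are 10 of 24451 genes, and all 10 were among the 14600 genes with enough counts to test. Values are in CPM, a count as a share of the library's scaled total over genes, expressed per M (mega, the unit prefix) of fragments.

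The counts come from RNA sequencing of the mouse embryonic stem cell line ES-R1, which was grown without serum and sampled within 4 days of differentiation. There were 5 groups of 3 libraries, and every group, including the controls, had received an siRNA. Control siRNA was combined with SB, with Activin A at 25 ng/ml, or with neither, and an siRNA against Vprbp was combined with Activin A or with nothing. SB is an inhibitor of the receptors for Activin and Nodal whose number differs between the sources: SB431524 in sample titles, SB431542 in the description of the series. It was used with control siRNA only, and no source used here gives a dose. Libraries with control siRNA are called control libraries below, and those with Vprbp siRNA knockdown libraries. All of them share 1 cell line, and no label states whether a replicate was its own culture. The p-values therefore describe the scatter of these samples only, and that scatter could be technical.

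The Hippo pathway is a chain of kinases in which Stk3 and Stk4 (MST2 and MST1) activate Lats1 and Lats2, and the Lats kinases phosphorylate the coactivators YAP and TAZ (the product of Wwtr1) so that they stay out of the nucleus. Unphosphorylated YAP binds TEAD proteins on DNA and switches on genes for secreted proteins, adhesion and cytoskeletal proteins, and some inhibitors of YAP itself. In the early mouse embryo, TEAD4 and YAP act in the outer cells that form trophoblast, and YAP is active in pluripotent stem cells in culture. Vprbp, also called Dcaf1, is the substrate receptor of a ubiquitin ligase, and in human cells it has been described to be restrained by merlin, the product of Nf2, and to target the Lats kinases.

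The TEAD proteins recognise a short motif, written GGAATG on one strand and CATTCC on the other, and the stretches before the start sites of 6 members are printed to show where those letters stand. Sequences and starts are RefSeq's on build GRCm38.p6, 8 of the 10 members had an entry, and each line gives the 250 bases before the start, 5′ to 3′ on the gene's own strand, with the motif in capitals. Amotl2 (chr9:102717554-102717803, plus strand), Ajuba (chr14:54577662-54577911, minus strand), Lats2 (chr14:57746124-57746373, minus strand, the first of 2 listed starts) and Amotl1 (chr9:14615001-14615250, minus strand, a start inside the gene) are the members that were higher with SB, and Cyr61 (chr3:145649986-145650235, minus strand) and Ankrd1 (chr19:36119845-36120094, minus strand) are the secreted and nuclear targets for which an entry was found.
Amotl2: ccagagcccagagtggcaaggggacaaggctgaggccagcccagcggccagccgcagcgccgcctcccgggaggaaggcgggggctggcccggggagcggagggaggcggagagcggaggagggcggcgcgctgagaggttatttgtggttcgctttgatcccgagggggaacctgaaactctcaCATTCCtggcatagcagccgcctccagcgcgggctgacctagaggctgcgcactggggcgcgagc
Ajuba: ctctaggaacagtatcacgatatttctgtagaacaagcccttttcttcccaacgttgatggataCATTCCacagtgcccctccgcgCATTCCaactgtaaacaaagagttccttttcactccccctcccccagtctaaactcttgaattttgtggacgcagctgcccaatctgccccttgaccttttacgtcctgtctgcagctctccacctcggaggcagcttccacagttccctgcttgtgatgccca
Lats2: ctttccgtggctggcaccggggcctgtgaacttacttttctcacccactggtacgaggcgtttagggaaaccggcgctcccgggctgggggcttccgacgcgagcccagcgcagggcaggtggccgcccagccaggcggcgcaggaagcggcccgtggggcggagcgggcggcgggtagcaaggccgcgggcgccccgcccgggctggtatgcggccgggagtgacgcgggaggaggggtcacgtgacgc
Amotl1: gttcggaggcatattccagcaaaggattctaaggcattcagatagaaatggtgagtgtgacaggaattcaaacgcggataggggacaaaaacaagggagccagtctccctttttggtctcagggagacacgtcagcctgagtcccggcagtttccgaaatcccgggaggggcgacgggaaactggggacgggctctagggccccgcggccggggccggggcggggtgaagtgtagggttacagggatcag
Cyr61: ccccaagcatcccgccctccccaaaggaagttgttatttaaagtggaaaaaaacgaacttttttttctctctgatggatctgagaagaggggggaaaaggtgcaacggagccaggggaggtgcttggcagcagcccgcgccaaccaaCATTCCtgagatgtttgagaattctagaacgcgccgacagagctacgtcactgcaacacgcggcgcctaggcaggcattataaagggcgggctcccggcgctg
Ankrd1: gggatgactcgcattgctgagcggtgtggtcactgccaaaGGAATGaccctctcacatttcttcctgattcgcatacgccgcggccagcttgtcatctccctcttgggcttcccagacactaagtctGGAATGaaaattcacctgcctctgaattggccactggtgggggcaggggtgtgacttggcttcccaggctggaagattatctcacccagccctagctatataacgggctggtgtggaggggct

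The motif, in either orientation, stood before the start of 6 of the 8 members, against 12.6% of 32851 promoter windows in the same table. The units differ: members were counted as genes, of which Lats2 has more than 1 window, and the share is over windows, which belong to 27025 genes. In Cyr61 its first base lay 103 bases before the start, in Amotl2 65 bases and in Crim1 79 bases. Axl had it 233 bases before the start. Ankrd1 carried it at 210 and 123 bases before the start, and Ajuba at 186 and 164 bases. Lats2 had none before its starts and 1 match 5 bases past the first start, and Amotl1 had none in this window. The Amotl1 start in the table lies 48.0 kb inside the span that RefSeq gives for the gene, so the stretch before the gene's outer end is not shown. The starts of Amotl2, Axl and Crim1 and the first of Lats2 lie 15 to 713 bases inside their genes' spans. A match is a description of letters, and absence from a window of 250 bases says nothing of sites elsewhere.

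Assigned fragments ran from 11.1 M in the shallowest library to 15.5 M in the deepest. A count of 0 therefore allows up to 0.193 to 0.269 CPM, a limit of 3 counts per library that covers counting error only. The first principal component held 48.7% of the variance of log2 CPM and set the 3 SB libraries apart from the other 12. The third untreated control library and the third knockdown library without Activin lay away from their groups on it, and the first Activin-treated knockdown library lay away from its group on the second. Pou5f1 (332.4 to 824.8 CPM), Sox2 (611.2 to 965.7 CPM) and Nanog (232.2 to 470.7 CPM), which mark pluripotent cells, were detected in all 15 libraries.

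Vprbp, the siRNA's target, was measured at 138.2 ± 9.23 CPM in Activin-treated knockdown libraries and 179 ± 4.41 CPM in Activin-treated control libraries, a decrease of 22.8% (SD, n = 3 each). Without Activin it was 122.1 ± 8.91 CPM in knockdown libraries and 170.9 ± 3.59 CPM in control libraries, a decrease of 28.5% (SD, n = 3 each). The targeted transcript was therefore partly lowered in both arms. Exons of Manf and Rbm15b on the other strand overlap those of Vprbp over 146 and 75 bases, and whether the counting used strand is not stated in the sources used. The log2 fold changes were -0.37 ± 0.06 (SE, adjusted p = 0.0374) with Activin and -0.49 ± 0.06 (SE, adjusted p = 0.00205) without it, by edgeR's quasi-likelihood test, with p-values adjusted by Benjamini-Hochberg over all genes tested, which is the test behind every adjusted p below. With Activin the call was lost when any of 5 of the 6 libraries was left out (adjusted p between 0.0445 and 0.296 over the 6 fits), all except the first Activin-treated knockdown library. Without Activin, of the alternatives run, it was lost only in a fit restricted to those 6 libraries (adjusted p = 0.151). In SB libraries Vprbp was at 150.9 ± 6.63 CPM, also below untreated control libraries (log2 fold change -0.18 ± 0.06 SE, adjusted p = 0.0485), a call lost when any library was left out (adjusted p between 0.0574 and 0.186).

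Because a longer transcript yields more fragments, members were compared with each other only as CPM per kilobase (kb) of exon, with exon lengths from the GENCODE vM21 annotation. In untreated control libraries the order was Ajuba at 66.1 ± 2.22 CPM per kb, Tead1 at 44.9 ± 2.48, Cyr61 at 28.0 ± 9.70, Ctgf at 26.0 ± 5.51, Amotl2 at 14.5 ± 0.737 and Amotl1 at 11.4 ± 0.433 CPM per kb (SD, n = 3 each). Crim1 followed at 3.25 ± 0.222 CPM per kb, Axl at 2.50 ± 0.334, Lats2 at 1.46 ± 0.225 and Ankrd1 at 0.311 ± 0.115 CPM per kb (SD, n = 3 each). Of these neighbours only Cyr61 and Ctgf overlapped between libraries. Ajuba and Tead1 were thus the most abundant members per length and Ankrd1 the least, with 5 to 40 counts per library over the whole series.

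**Figure D1:**
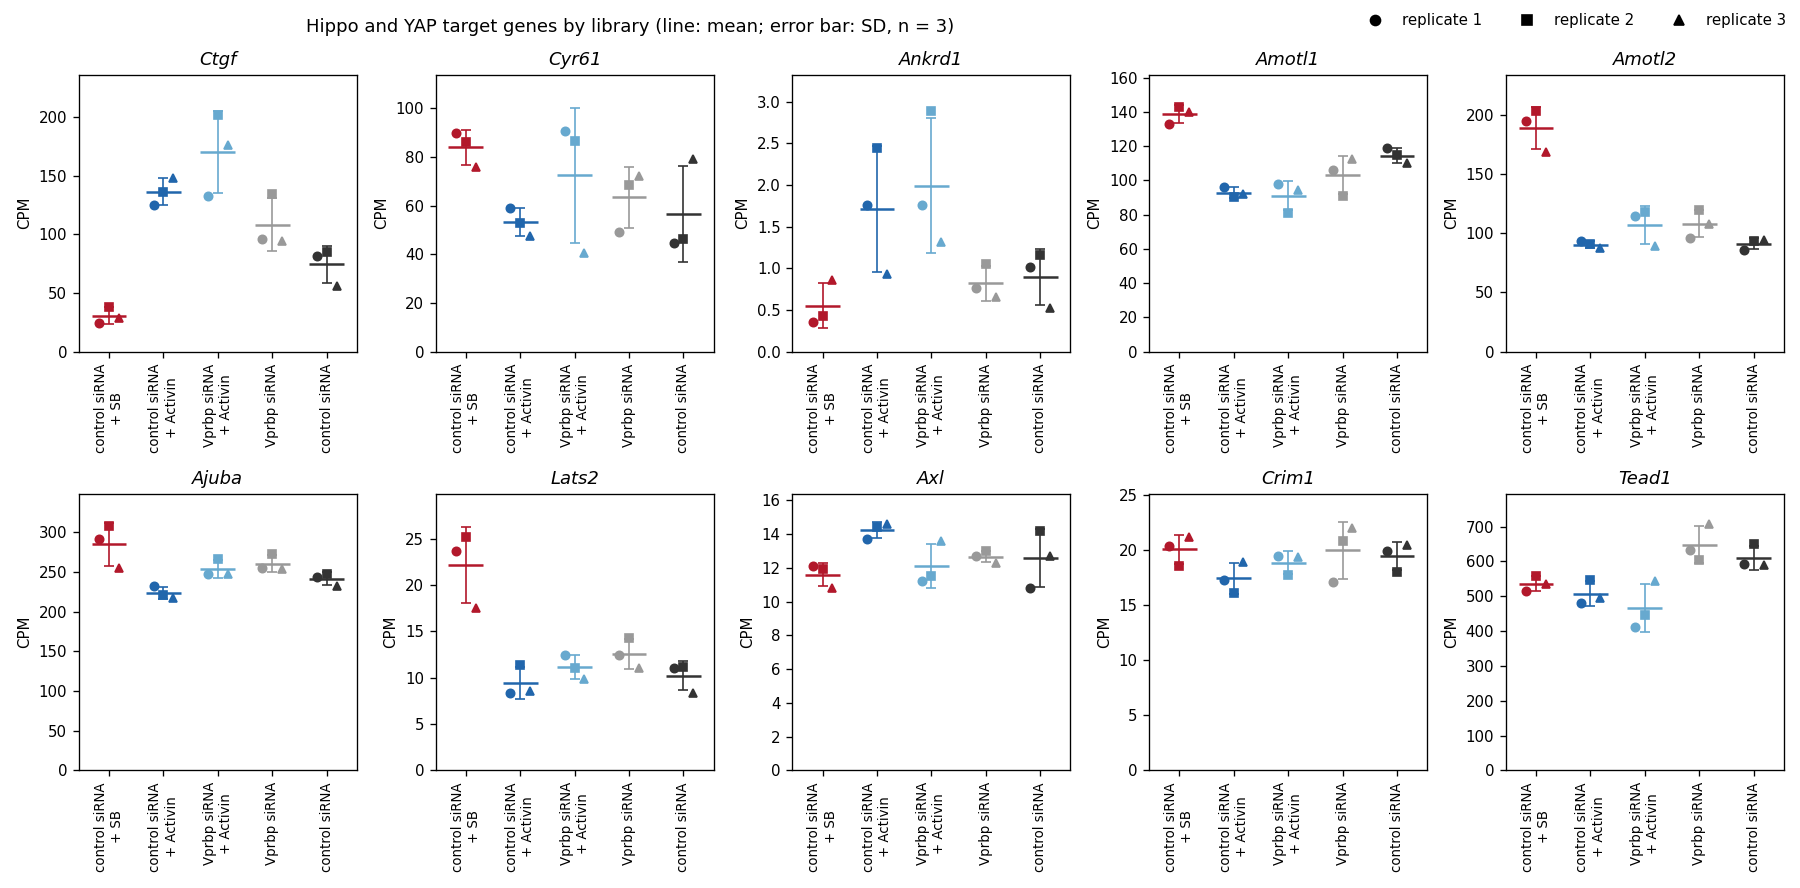
CPM of each of the 10 member genes in each of the 15 libraries, on linear axes from 0, with groups along the horizontal axis, points for libraries (shapes mark replicate numbers), a line for each group's mean and error bars for the SD (n = 3). The 3 SB libraries stood above every other library for Amotl2 and Lats2 and below every other library for Ctgf.

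With SB, 4 members rose, 1 fell and 5 did not pass the test against untreated control libraries. Over all genes, 22.6% passed, 11.2% higher and 11.3% lower, and the members' median log2 fold change was 0.14, against a median near 0 over all genes (-0.0048). The genes that rose were the YAP-binding scaffolds Amotl1 and Amotl2, the LIM protein Ajuba and the kinase Lats2, all known to act on YAP or on the Lats kinases. The gene that fell was Ctgf, which encodes a secreted matricellular protein. Beside this, the summed level of 12 trophoblast markers was 1694 to 1994 CPM in SB libraries and 753 to 846 CPM in untreated control libraries, and 6 of the 11 tested were called higher (Gata2, Gata3, Hand1, Krt7 and Peg10 among them) and 0 lower, while Cdx2, which defines trophoblast, was at 0.747 ± 0.259 CPM with SB and 1.11 ± 0.380 CPM without (SD, n = 3 each) and Elf5 was at 0 counts in 11 of the 15 libraries. Eomes, another trophoblast gene of that list, was not called in the fit of all 15 libraries. A fit of only the SB and untreated control libraries called it lower (log2 difference -0.59, adjusted p = 0.0272). So did a fit without the 3 libraries that lie apart (-0.77, adjusted p = 0.000221). Krt8 was called higher in both of these fits (1.21 and 1.41, adjusted p up to 0.00195). Krt18, also among the 6 called higher, lost its call when any library except the third SB library was left out (adjusted p between 0.0635 and 0.0718). Of 8 pluripotency genes, 5 were called lower and 1 higher with SB, and their summed level was 2859 to 3167 CPM with SB and 3801 to 4268 CPM without. Of the other cell types considered, 15 extraembryonic endoderm markers summed to 1023 to 1228 CPM with SB and 797 to 897 CPM without (5 of 14 tested higher and 1 lower). The sums were 57.5 to 70.0 CPM with SB and 65.8 to 88.8 CPM without for 12 fibroblast markers, of which Lum and S100a4 were at 0 in 11 and 10 libraries, and 81.0 to 87.3 CPM with SB and 120 to 152 CPM without for 8 endothelial markers. The part of these shifts in the members' changes was not tested. In bulk RNA, fewer cells of a type and less RNA per cell cannot be told apart.

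Ctgf (build GRCm38.p6, chr10:24595442-24598683, plus strand), a textbook target of YAP that also responds to Smad proteins and to SRF, the serum response factor, had 24.5, 38.4 and 28.8 CPM in SB libraries and 81.7, 85.1 and 56.3 CPM in untreated control libraries. Every SB library lay below every untreated one, and the lowest untreated library was the third. The log2 fold change was -1.28 ± 0.23 (SE, adjusted p = 0.00215). Gm15270, which has no row in the count table, overlaps 665 of the 2861 exon bases of Ctgf on the other strand. Its relative Cyr61 (chr3:145646971-145649985, minus strand) had 89.9, 86.0 and 76.0 CPM with SB and 44.5, 46.1 and 79.2 CPM without, a log2 difference of 0.57 ± 0.31 (SE, adjusted p = 0.225). The groups overlapped through the third untreated control library alone, which held 1.75 times the mean of the other 2, and without it the difference was 0.89 (adjusted p = 0.0679). So the 2 CCN family members, usually measured side by side as YAP targets, had log2 differences of opposite sign, and only that of Ctgf passed the test.

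Ankrd1 (chr19:36111965-36119844, minus strand), an ankyrin repeat protein of muscle sarcomeres and nuclei, had 0.36, 0.43 and 0.86 CPM with SB and 1.02, 1.16 and 0.52 CPM without, values near the counting limit that overlapped (log2 difference -0.70 ± 0.50 SE, adjusted p = 0.358). Axl (chr7:25756500-25788924, minus strand), a receptor tyrosine kinase for Gas6, averaged 11.6 ± 0.714 CPM with SB and 12.6 ± 1.68 CPM without (SD, n = 3 each, log2 difference -0.11 ± 0.12 SE, adjusted p = 0.56). Crim1 (chr17:78200233-78376592, plus strand), a transmembrane protein that binds BMPs, averaged 20.1 ± 1.33 CPM with SB and 19.5 ± 1.33 CPM without (SD, n = 3 each, log2 difference 0.04 ± 0.11 SE, adjusted p = 0.832). For these 3 targets no difference was resolved at this depth and spread. Exons of Crim1 overlap those of Fez2 on the other strand over 123 bases.

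Amotl2 (chr9:102717091-102733418, plus strand), an angiomotin that binds YAP and holds it at junctions, had 194.3, 202.9 and 168.7 CPM with SB and 85.8, 93.5 and 94.2 CPM without. The lowest SB library stood well above the highest untreated one, and the log2 fold change was 1.05 ± 0.10 (SE, adjusted p = 2.84e-07). Lats2 (chr14:57689662-57746212, minus strand), the kinase that phosphorylates YAP and is itself switched on by YAP, had 23.7, 25.2 and 17.5 CPM with SB and 11.1, 11.2 and 8.38 CPM without. Again the groups did not overlap, and the log2 fold change was 1.12 ± 0.16 (SE, adjusted p = 3.23e-05). The annotation places Gm49361, which has no row in the count table, on the same strand over 2955 bases of the Lats2 exons.

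Amotl1 (chr9:14541966-14662974, minus strand), the sister scaffold of Amotl2, had 132.9, 143.2 and 139.9 CPM with SB and 118.7, 114.9 and 110.0 CPM without, with no overlap and a log2 fold change of 0.28 ± 0.08 (SE, adjusted p = 0.0127). Ajuba (chr14:54567469-54577661, minus strand), a LIM protein that restrains the Lats kinases, had 291.3, 308.0 and 254.8 CPM with SB and 244.0, 247.5 and 232.1 CPM without, with a log2 fold change of 0.24 ± 0.07 (SE, adjusted p = 0.0121). Its groups did not overlap, but the call was lost without the first SB library (adjusted p = 0.0514) or the second (0.0803). Tead1 (chr7:112679356-112906784, plus strand), one of the DNA-binding partners of YAP, had 515.2, 558.9 and 535.0 CPM with SB and 591.5, 648.5 and 589.1 CPM without. All SB values were lower, with a log2 difference of -0.18 ± 0.09 that did not pass (SE, adjusted p = 0.136). Of the members, 4 lay above and 2 below with no overlap between the groups, against 18.8% and 18.4% of all genes (37.2% together).

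**Figure D2:**
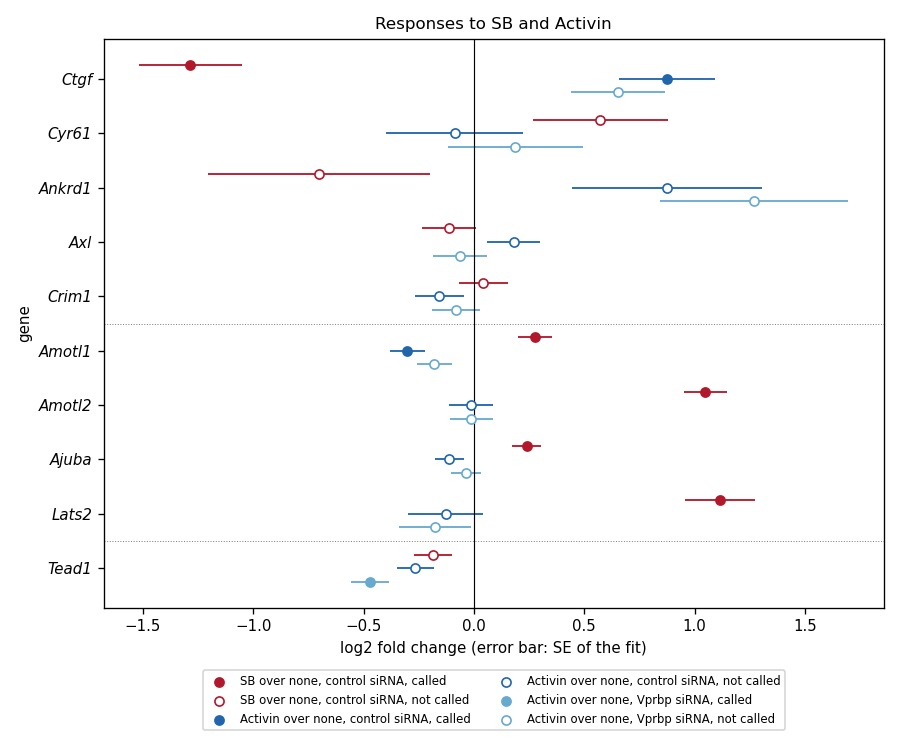
Log2 fold change of each member for SB with control siRNA, Activin with control siRNA and Activin with Vprbp siRNA, each against the matching group without addition, with bars for the standard error of the fit. Ctgf lies at -1.28 with SB and at 0.88 and 0.65 with Activin, and Amotl2 and Lats2 lie above 1 with SB and between -0.18 and 0 with Activin.

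With Activin, 1 member rose and 1 fell in control libraries and 8 did not pass, where 4.83% of all genes passed (2.95% higher and 1.88% lower). Ctgf had 125.3, 136.1 and 148.1 CPM with Activin and 81.7, 85.1 and 56.3 CPM without, and the groups did not overlap. Its log2 fold change was 0.88 ± 0.22 (SE, adjusted p = 0.045). That call did not survive the loss of any of the 6 libraries (log2 fold change 0.71 to 0.98, adjusted p between 0.0662 and 0.179), and the fold change was smallest without the third untreated control library. It was also lost without the 3 libraries that lie apart (0.71, adjusted p = 0.08), without the filter on low counts (0.87, adjusted p = 0.07) and with the replicate number as a block in a fit of only these libraries (0.89, adjusted p = 0.0594). Amotl1 had 96.3, 90.4 and 91.9 CPM with Activin and 118.7, 114.9 and 110.0 CPM without, again with no overlap and a log2 fold change of -0.30 ± 0.08 (SE, adjusted p = 0.0314). Its call held without the third untreated control library (adjusted p = 0.0398) and was lost without any of the other 5 (adjusted p up to 0.111).

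Amotl2 was 93.4, 90.5 and 87.2 CPM with Activin and 85.8, 93.5 and 94.2 CPM without, which overlapped (log2 difference -0.01 ± 0.10 SE, adjusted p = 0.959). Lats2 was 8.33, 11.4 and 8.52 CPM with Activin and 11.1, 11.2 and 8.38 CPM without, with a log2 difference of -0.13 ± 0.17 (SE, adjusted p = 0.727). The pair of genes with the largest rise under SB thus had no called difference under Activin. Cyr61 differed by -0.09 ± 0.31, Axl by 0.18 ± 0.12, Crim1 by -0.16 ± 0.11 and Ajuba by -0.11 ± 0.07 on the log2 scale (SE, adjusted p between 0.358 and 0.909). Ankrd1 had 1.76, 2.44 and 0.93 CPM with Activin, against 1.02, 1.16 and 0.52 CPM without, a log2 difference of 0.88 ± 0.43 (SE, adjusted p = 0.253) from few counts. Tead1 had 479.4, 547.2 and 495.8 CPM with Activin and 591.5, 648.5 and 589.1 CPM without, with no overlap (log2 difference -0.26 ± 0.09 SE, adjusted p = 0.0835); a fit of only these 6 libraries called it (adjusted p = 0.035). Over the 10 members, 1 lay above and 3 below without overlap, against 14% and 13.6% of all genes (27.6% together), and 3 had an unadjusted p under 0.05, against 20.6% of all genes. The trophoblast markers summed to 699 to 724 CPM with Activin and 753 to 846 CPM without, and 0 of the 11 tested were called. The extraembryonic endoderm markers summed to 717 to 824 CPM with Activin and 797 to 897 CPM without. Of the 14 tested, 3 were called higher and 2 lower, where 2.95% and 1.88% of all genes were. Their log2 differences ran from -1.28 to 4.30. The part of either list was not tested.

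In knockdown libraries, Activin lowered 1 member, raised 0 and left 9 without a call, where 6.12% of all genes passed (3.65% higher and 2.47% lower). The 1 called member was Tead1, with 411.5, 445.7 and 543.4 CPM with Activin and 632.2, 604.4 and 706.9 CPM without. Its groups did not overlap, and the log2 fold change was -0.47 ± 0.09 (SE, adjusted p = 0.00221, and 0.0187 at most when a library was left out). Ctgf had 132.5, 202.2 and 176.4 CPM with Activin and 96.4, 134.2 and 94.7 CPM without. The groups overlapped only in that the highest untreated library lay just above the lowest treated one, and the log2 difference of 0.65 ± 0.21 did not pass (SE, adjusted p = 0.109). Ankrd1 had 1.76, 2.89 and 1.32 CPM with Activin and 0.76, 1.05 and 0.65 CPM without, all treated values higher (log2 difference 1.27 ± 0.43 SE, adjusted p = 0.0842, or 1.51 with adjusted p = 0.0403 without the third treated library). Amotl1 was 97.7, 81.3 and 94.6 CPM with Activin and 105.9, 91.2 and 112.4 CPM without, overlapping (log2 difference -0.18 ± 0.08 SE, adjusted p = 0.203), and it was called when the second knockdown library without Activin was left out (-0.26, adjusted p = 0.0484). Ankrd1 lay above and Tead1 below without overlap, 1 member each way, against 11.2% and 10.2% of all genes (21.4% together).

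Whether the Activin response differed between the siRNAs was tested as the difference of the 2 responses. It was called for 0 of 10 members and 0% of all genes by edgeR's quasi-likelihood test, with 0 members at an unadjusted p under 0.05 (3.54% of all genes) and 0 members by DESeq2. The estimates were -0.22 ± 0.30 for Ctgf, -0.21 ± 0.12 for Tead1, 0.39 ± 0.61 for Ankrd1, 0.28 ± 0.44 for Cyr61 and -0.24 ± 0.17 for Axl (log2, SE). The call of Tead1 in one arm and of Ctgf and Amotl1 in the other is therefore not shown to be a difference between the siRNAs.

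Setting Activin directly against SB, both with control siRNA, 2 members were higher with Activin and 4 lower, where 38% of all genes passed (19% in each direction). Ctgf had a log2 fold change of 2.16 ± 0.23 (SE, adjusted p = 2.5e-05), with 125.3 to 148.1 CPM with Activin and 24.5 to 38.4 CPM with SB. Ankrd1 was also higher (1.58 ± 0.47 SE, adjusted p = 0.0111), a call that was lost without the second Activin library (1.24, adjusted p = 0.0692) or the first SB library (1.35, adjusted p = 0.0554). Lower with Activin were Lats2 (-1.24 ± 0.16 SE, adjusted p = 4.96e-06), Amotl2 (-1.06 ± 0.10 SE, adjusted p = 9.64e-08), Amotl1 (-0.58 ± 0.08 SE, adjusted p = 7.45e-06) and Ajuba (-0.35 ± 0.07 SE, adjusted p = 0.000312). These comparisons share the SB or the Activin libraries with those above and are not independent of them.

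Cyr61 had 59.1, 53.0 and 47.5 CPM with Activin and 89.9, 86.0 and 76.0 CPM with SB, with no overlap, yet its log2 difference of -0.66 ± 0.31 did not pass (SE, adjusted p = 0.118). In a fit of only these 6 libraries the same difference had an adjusted p of 1.86e-08. The spread that the fit over 15 libraries used for Cyr61 included the untreated and knockdown groups, in which its values ranged from 40.4 to 90.4 CPM. Axl had 13.7, 14.4 and 14.6 CPM with Activin and 12.1, 11.9 and 10.8 CPM with SB, also without overlap (log2 difference 0.29 ± 0.12 SE, adjusted p = 0.0626, or 0.0381 in a fit of only these libraries). Tead1 differed by -0.08 ± 0.09 and Crim1 by -0.20 ± 0.11 (log2, SE), neither of them called. In all, 3 members lay above and 5 below without overlap, against 27.2% and 27.6% of all genes (54.9% together).

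With Vprbp siRNA in the absence of Activin, 0 of 10 members were called by edgeR's quasi-likelihood test and 0 by DESeq2, where 0.0411% of all genes passed, 6 in all (0.0342% higher and 0.00685% lower). At an unadjusted p under 0.05 there were 2 members, against 8.16% of all genes. Ctgf had 96.4, 134.2 and 94.7 CPM in knockdown libraries and 81.7, 85.1 and 56.3 CPM in control libraries, each knockdown value above each control value (log2 difference 0.54 ± 0.22 SE, adjusted p = 0.558). Amotl2 had 96.3, 119.2 and 108.0 CPM in knockdown libraries and 85.8, 93.5 and 94.2 CPM in control libraries, again without overlap (0.24 ± 0.10 SE, adjusted p = 0.545). Ajuba did not overlap either, with 254.2, 272.6 and 253.4 CPM in knockdown libraries and 244.0, 247.5 and 232.1 CPM in control libraries (0.11 ± 0.07 SE, adjusted p = 0.701). That made 3 members above and 0 below without overlap, against 6.64% and 5.65% of all genes (12.3% together). The log2 difference was positive for 8 of 10 members, where 50.2% of all genes were positive.

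The numbered replicates of these 2 groups deviated together (correlation of same-numbered deviations 0.123, 0.196 and 0.369), so the comparison was also made within pairs. The second knockdown library correlated with the first control library as well (0.185, above the 0.123 of the first pair), and the highest value was between the third libraries, which both lie apart from their groups. With the replicate number as a block over all 15 libraries, 0 members were called. With the block in a fit of only these 6 libraries, Ctgf (0.54, adjusted p = 0.000479) and Amotl2 (0.24, adjusted p = 0.0488) were called higher with Vprbp siRNA, and 333 genes in all. The paired calls rest on a choice made after the data were seen and on a pairing read from the data, not from the labels.

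Lats2, whose protein Vprbp has been described to target in human cells, had 12.4, 14.3 and 11.1 CPM in knockdown libraries and 11.1, 11.2 and 8.38 CPM in control libraries, which overlapped narrowly (log2 difference 0.30 ± 0.16 SE, adjusted p = 0.667). Cyr61 differed by 0.17 ± 0.31 (SE), and this estimate ranged from 0.02 to 0.49 depending on the library left out, with the highest value without the third untreated control library. Amotl1 differed by -0.15 ± 0.08, Tead1 by 0.09 ± 0.09, Ankrd1 by -0.14 ± 0.47, Axl by 0.01 ± 0.12 and Crim1 by 0.04 ± 0.11 (log2, SE, none called). The transcript level does not report on the protein level of Lats1 or Lats2, which these libraries did not measure.

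With Activin, the knockdown again gave 0 of 10 members called by edgeR's quasi-likelihood test and 0 by DESeq2, where 0.0411% of all genes passed (0.0342% higher and 0.00685% lower), and 2 members had an unadjusted p under 0.05 (10.5% of all genes). Ajuba had 246.9, 266.6 and 247.6 CPM in Activin-treated knockdown libraries and 232.0, 221.3 and 216.4 CPM in Activin-treated control libraries, without overlap (log2 difference 0.18 ± 0.07 SE, adjusted p = 0.327). Axl lay lower without overlap, at 11.2, 11.5 and 13.6 CPM with Vprbp siRNA and 13.7, 14.4 and 14.6 CPM with control siRNA (-0.23 ± 0.12 SE, adjusted p = 0.508). No other member separated the groups, so 1 member lay above and 1 below, against 8.37% and 9.04% of all genes (17.4% together). Ctgf had 132.5, 202.2 and 176.4 CPM with Vprbp siRNA and 125.3, 136.1 and 148.1 CPM with control siRNA (0.32 ± 0.21 SE, adjusted p = 0.638). Amotl2 had 114.4, 117.6 and 88.9 CPM with Vprbp siRNA and 93.4, 90.5 and 87.2 CPM with control siRNA, overlapping through the third knockdown library (0.24 ± 0.10 SE, adjusted p = 0.392). Cyr61 had 90.4, 86.4 and 40.4 CPM with Vprbp siRNA and 59.1, 53.0 and 47.5 CPM with control siRNA. The third knockdown library held 0.457 times the mean of the other 2, and the log2 difference was 0.44 ± 0.31 (SE, adjusted p = 0.66) with it and 0.74 without it (adjusted p = 0.237). The trophoblast markers summed to 1041, 749 and 798 CPM with Vprbp siRNA and 699 to 724 CPM with control siRNA, both with Activin. The highest of these was the first knockdown library, which lies apart. Without Activin they summed to 870 to 987 CPM with Vprbp siRNA and 753 to 846 CPM with control siRNA. In both comparisons 0 of the 11 tested markers were called, and their part was not tested.

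**Figure D3:**
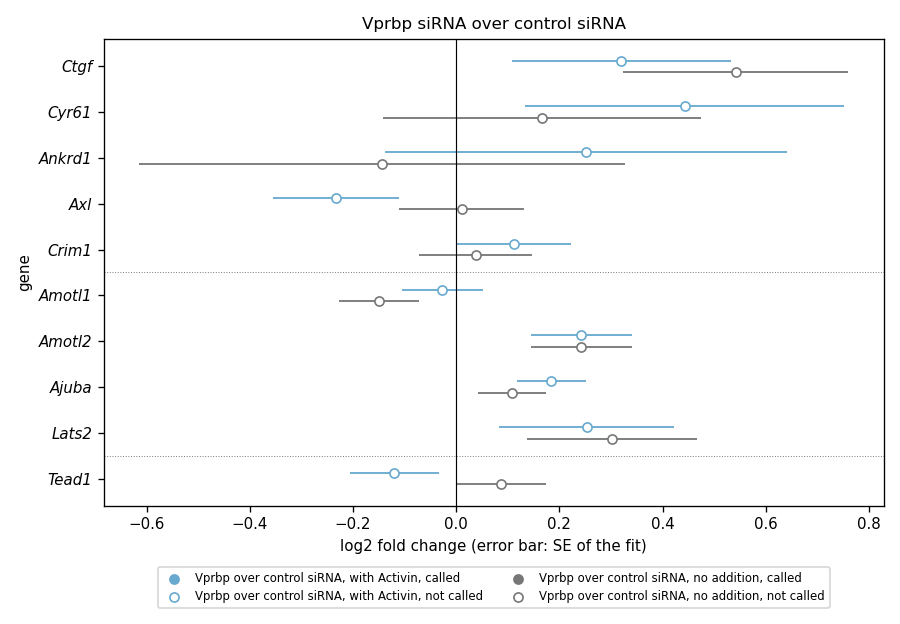
Log2 difference of each member between Vprbp siRNA and control siRNA, with and without Activin, with bars for the standard error of the fit. All estimates lie between -0.23 and 0.54, and none passed the test in either condition.

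The members also differed in how much they varied between replicates. The biological coefficient of variation was 26.8% for Ankrd1, 25.7% for Cyr61 and 18.5% for Ctgf, above the median of 8.96% over all genes tested. Lats2 was at 12.3%, and Amotl2 (8.53%), Axl (8.25%), Crim1 (8.05%), Tead1 (8.04%), Amotl1 (6.95%) and Ajuba (6.39%) were below that median. With SB, Ajuba (0.24) and Amotl1 (0.28) were called, while Cyr61 (0.57) and Ankrd1 (-0.70) were not, on the log2 scale. The part of this variation in those calls was not tested.

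How the members varied together is given as a description, in which the 3 SB libraries, which stand apart, weigh heavily. Pearson's r of log2 CPM was 0.925 between Amotl2 and Lats2 (n = 15 libraries), and 0.458 once each library was taken relative to its group's mean. Between Ctgf and Amotl1 it was -0.931, and -0.354 within groups. Cyr61 and Amotl2 had 0.726 over all libraries and 0.81 within groups, the highest value within groups of the pairs named here. Ctgf and Cyr61 had -0.424 and -0.348. All values of a library share its depth and scaling.

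**Figure D4:**
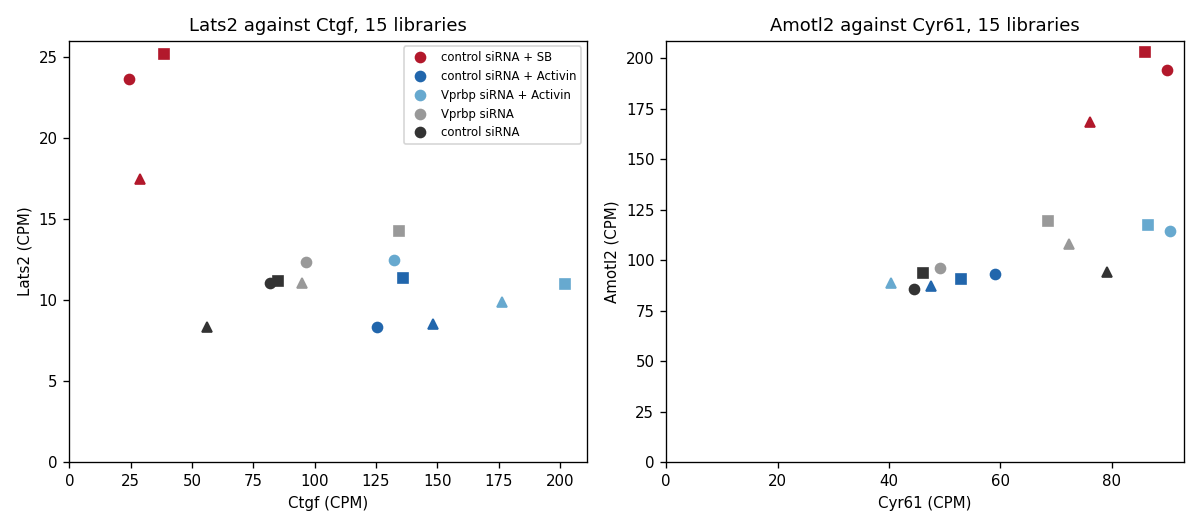
CPM of Lats2 (vertical) against Ctgf (horizontal), and of Amotl2 against Cyr61, on linear axes, 1 point per library, coloured by group and shaped by replicate number. The SB libraries stand apart at high Lats2 and low Ctgf, while Amotl2 and Cyr61 also vary together among libraries of the same group.

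The genes most like Ctgf over the 15 libraries were Tmem154 (r = 0.988, 0.831 within groups), Mmp25 (0.986 and 0.845) and Kcnj3 (0.986 and 0.808). Those most like Cyr61 were Tnfrsf1a (0.901 and 0.858), Fosl2 (0.9 and 0.874) and Myd88 (0.898 and 0.943). Cyr61 is also a target of SRF, which switches on actin and smooth muscle genes. Within groups, 7 of 15 tested genes of a list of SRF and actin targets had r above 0.5 with Cyr61, against 12.4% of all genes, with Fos at 0.84, Tagln at 0.829 and Srf at 0.791. In that list, SB raised 7 of 15 tested genes and lowered 1, with Flna (0.30 ± 0.06 SE, adjusted p = 0.00195) and Vcl (0.23 ± 0.06 SE, adjusted p = 0.00512) the clearest, and the list's median log2 difference was 0.29. Over all genes 11.2% rose and 11.3% fell. The 7 higher calls became 4 without the first or the second untreated control library or the second SB library, and the 1 lower call, Cnn1, was lost when any of 4 libraries was left out (adjusted p up to 0.181). Srf itself was called higher with Activin in knockdown libraries (0.39 ± 0.07 SE, adjusted p = 0.00159), and in control libraries its call (0.24 ± 0.07 SE, adjusted p = 0.0481) was lost when any library was left out (adjusted p between 0.0512 and 0.175).

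Of 20 genes of the upstream cascade, 7 rose and 1 fell with SB, with a median log2 difference of 0.10, where 11.2% of all genes rose and 11.3% fell. Fat4 and Dchs1, the atypical cadherins that bind each other between cells, rose most. Fat4 had 3.12, 2.75 and 3.29 CPM with SB and 0.88, 0.80 and 1.27 CPM without (log2 fold change 1.63 ± 0.30 SE, adjusted p = 0.000461). Dchs1 had 23.1, 19.9 and 15.1 CPM with SB and 10.4, 10.9 and 10.4 CPM without (0.87 ± 0.18 SE, adjusted p = 0.00134). Every SB library exceeded every untreated one for both cadherins. Ptpn14, a phosphatase that binds YAP, had 317.6, 354.4 and 327.0 CPM with SB and 228.6, 258.9 and 212.0 CPM without (0.51 ± 0.08 SE, adjusted p = 0.000165). Limd1, a LIM relative of Ajuba, rose by 0.38 ± 0.09 (SE, adjusted p = 0.00425) and Lats1, the partner kinase of Lats2, by 0.26 ± 0.08 (SE, adjusted p = 0.0234). The Lats1 call was lost without the second untreated control library (adjusted p = 0.0811), the first SB library (0.0599) or the third (0.117). Mob1a, another of the 7, was not called without the filter on low counts (0.21, adjusted p = 0.0831) or by DESeq2 (0.21, adjusted p = 0.0588). Its call was also lost in a fit of only these libraries (adjusted p = 0.0839) and without the 3 libraries that lie apart (0.106). Of the fits leaving out 1 library, only that without the first untreated control library kept it (adjusted p up to 0.147 in the others).

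The single fall in the cascade was Taok3, a kinase of the TAO family that acts upstream of the MST kinases. It had 25.7, 23.4 and 26.4 CPM with SB and 38.5, 39.9 and 41.5 CPM without, a log2 fold change of -0.67 ± 0.09 (SE, adjusted p = 1.6e-05). With Activin it had 55.8, 60.4 and 68.1 CPM in control libraries, against 38.5, 39.9 and 41.5 CPM without, and it rose by 0.62 ± 0.09 (SE, adjusted p = 0.000274). Its 3 groups with control siRNA did not overlap. In knockdown libraries it had 52.3, 58.4 and 57.5 CPM with Activin and 33.4, 35.6 and 38.7 CPM without, a rise of 0.64 ± 0.09 (SE, adjusted p = 0.000145). It was the 1 gene of the 20 that Activin called in control libraries, where 4.83% of all genes passed. Amot, the angiomotin of the cascade list, had 79.6, 78.3 and 73.0 CPM with Activin and 45.3, 36.7 and 32.4 CPM without, with no overlap. It was not called (log2 difference 1.01 ± 0.67 SE, adjusted p = 0.432), but it was called in a fit of only these 6 libraries (1.01, adjusted p = 0.000187), without the 3 libraries that lie apart (0.90, adjusted p = 0.00114) and with the block in a fit of only these 6 (1.02, adjusted p = 3.19e-05). Amot with SB had 72.7, 63.8 and 61.8 CPM, also above every untreated library and not called (0.79 ± 0.67 SE, adjusted p = 0.456), and the same 3 alternatives called it (0.69 to 0.80, adjusted p up to 0.00164). The replicate block over all libraries called Map4k4 lower with Activin in control libraries (-0.22, adjusted p = 0.0334). In knockdown libraries Activin also lowered Map4k4, a kinase that can act beside the MST kinases (-0.32 ± 0.07 SE, adjusted p = 0.0109), a call lost without the second treated library (-0.29, adjusted p = 0.0706) or the third untreated one (-0.24, adjusted p = 0.101) and in a fit of only those libraries (-0.33, adjusted p = 0.0681).

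Among 7 effectors and cofactors, SB raised 5 and lowered 0, with a median log2 difference of 0.35, where 11.2% of all genes rose and 11.3% fell. The 5 calls became 3 without the first or second untreated control library or the first SB library, and 2 without the second SB library. Vgll3, a cofactor of TEAD proteins, had 11.9, 9.18 and 8.52 CPM with SB and 2.31, 3.84 and 3.44 CPM without (log2 fold change 1.63 ± 0.23 SE, adjusted p = 2.82e-05). Tead3 had 22.9, 24.8 and 19.5 CPM with SB and 16.5, 17.6 and 16.5 CPM without (0.41 ± 0.11 SE, adjusted p = 0.00807, and 0.33 with 0.053 without the second SB library). Tead4, which in the embryo is needed for trophoblast, had 24.6, 23.5 and 23.4 CPM with SB and 17.5, 19.7 and 19.1 CPM without (0.35 ± 0.10 SE, adjusted p = 0.0178, and 0.0865 without the first untreated library or 0.0683 without the first SB library). Of the TEAD genes, Tead3 and Tead4 were thus called higher, and Tead1 and Tead2 (270.1 ± 17.5 CPM with SB and 282.9 ± 11.0 CPM without, SD, n = 3 each) were not called. Tead1 was called lower without the 3 libraries that lie apart (-0.21, adjusted p = 0.0303). Whether the TEAD genes differed from each other in their response was not tested.

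Yap1 itself had 336.2, 345.7 and 359.5 CPM with SB and 319.2, 313.2 and 291.1 CPM without (0.17 ± 0.06 SE, adjusted p = 0.0306). That call was lost without the second or the third library of either group (adjusted p up to 0.114). Vgll4, a cofactor that competes with YAP for TEAD proteins, was called (0.80 ± 0.27 SE, adjusted p = 0.0374), but not without the first or second library of either group (adjusted p up to 0.168). Wwtr1, which encodes TAZ, had 88.4, 74.3 and 84.7 CPM with SB and 65.9, 67.2 and 83.2 CPM without (0.19 ± 0.09 SE, adjusted p = 0.145), and it was called without the third untreated control library (0.31, adjusted p = 0.0127). Nf2, which encodes merlin, averaged 262.3 ± 6.35 CPM with SB and 275 ± 8.26 CPM without and was not called (SD, n = 3 each). Activin called 0 of the 7 in either arm by edgeR's quasi-likelihood test and by DESeq2. Over all genes, edgeR's test called 4.83% in control libraries and 6.12% in knockdown libraries. At an unadjusted p under 0.05 by that test there was 1 of the 7 in control libraries and 3 in knockdown libraries. The shares of all genes were 20.6% and 19.7%.

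**Figure D5:**
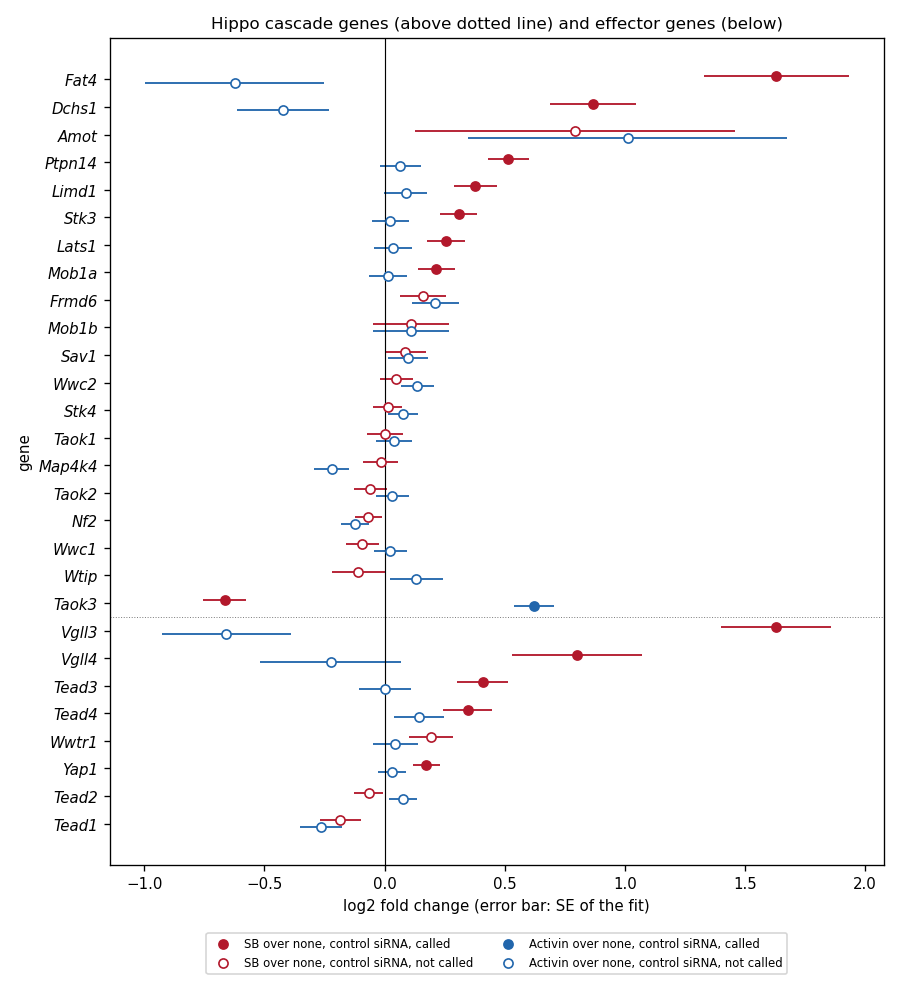
Log2 fold change with SB and with Activin, both with control siRNA, for genes of the upstream cascade and for the effectors and cofactors with Tead1, with filled points where the test was passed and bars for the standard error of the fit. Of the filled points, Fat4, Vgll3 and Dchs1 lie farthest to the right with SB, and Taok3 lies on opposite sides for SB and Activin.

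A list of 22 genes used as a YAP target signature holds 7 of the members and 15 other genes, of which 13 were tested. With SB, 2 of those 13 rose (Ptpn14, above, and Rbms3, at 1.39 ± 0.265 CPM with SB and 0.259 ± 0.160 CPM without, SD, n = 3 each, from few counts) and 3 fell. The 3 were Gadd45a, a stress-induced cell cycle protein (-0.61 ± 0.10 SE, adjusted p = 0.000127), Dock5, an activator of Rac (-0.32 ± 0.08 SE, adjusted p = 0.00757), and Fjx1, the relative of the fly Four-jointed kinase (-0.68 ± 0.18 SE, adjusted p = 0.0118). The call of Dock5 was lost without the second untreated control library (-0.24, adjusted p = 0.0589), and that of Fjx1 without the first untreated library (-0.52, adjusted p = 0.0703) or the third SB library (-0.51, adjusted p = 0.066). Igfbp3, also of the 13, was not called in the fit of all 15 libraries. DESeq2 called it lower with SB (-0.50, adjusted p = 0.0278). So did a fit of only these libraries (-0.50, adjusted p = 0.00271) and one without the 3 libraries that lie apart (-0.44, adjusted p = 0.000686). Of the whole list of 22, 20 genes were tested, and 4 were called higher and 4 lower with SB. Over all genes 11.2% rose and 11.3% fell, so calls in the list went both ways, as they did over all genes.

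With Activin in control libraries, Igfbp3, a binding protein of insulin-like growth factors, had 71.4, 72.7 and 66.4 CPM, against 29.2, 34.3 and 36.3 CPM without (1.08 ± 0.21 SE, adjusted p = 0.0119, and 0.0541 without the third untreated library). Nt5e, the surface nucleotidase CD73, had 10.3, 10.5 and 10.4 CPM with Activin and 4.07, 3.84 and 5.99 CPM without (1.17 ± 0.21 SE, adjusted p = 0.00305). Both rose without overlap, as Ctgf did, and they were the 2 called genes of the 13. In that comparison 2.95% of all genes were called higher and 1.88% lower, and 14% lay above without overlap. In knockdown libraries Igfbp3 rose by 1.25 ± 0.20 (SE, adjusted p = 0.00337) and Nt5e by 0.78 ± 0.20 (SE, adjusted p = 0.0246), the second of which was lost without the first (0.72, adjusted p = 0.0973) or the third (0.66, adjusted p = 0.142) knockdown library without Activin or the first with it (0.71, adjusted p = 0.068). In a fit of only those libraries neither was called (Igfbp3 1.25 with adjusted p = 0.108, Nt5e 0.78 with 0.0533). Igfbp3 was not called with the replicate block in that fit either (1.20, adjusted p = 0.0516), nor Nt5e without the 3 libraries that lie apart (0.58, adjusted p = 0.11). Myof, a membrane repair protein of the ferlin family, was called lower there (-0.34 ± 0.10 SE, adjusted p = 0.0388), which held without the second knockdown library or the third Activin-treated one and was lost without any of the other 4 (-0.20 and adjusted p = 0.316 without the third knockdown library). A fit of only those libraries did not call Myof (adjusted p = 0.153). Over all genes, Activin in knockdown libraries called 3.65% higher and 2.47% lower. Against control siRNA, Vprbp siRNA called 0 of the 20 cascade genes, 0 of the 7 effectors and 0 of the 20 tested YAP targets, with or without Activin, by edgeR's quasi-likelihood test and by DESeq2. At an unadjusted p under 0.05 these lists held 5, 1 and 2 genes with Activin and 1, 0 and 4 genes without, against 10.5% and 8.16% of all genes.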

How the data were processed

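The values deposited by the authors are raw fragment counts, 1 row per gene symbol and 1 column for each of 15 libraries. The submitters' processing notes name HTSeq 0.6.1p1 and build mm10. The aligner, annotation and strand setting were not given in the sources used here. Of 24456 rows, 5 are tallies and were left out, and 55.6% to 60.4% of fragments were assigned to genes (11.1 M to 15.5 M a library, M for mega). Columns were matched to samples through the sample numbers in the labels' descriptions. Genes passing filterByExpr (minimum count 10) were scaled by TMM (factors 0.985 to 1.02) and tested with edgeR 4.0.16 (quasi-likelihood, R 4.3.3) over all 15 libraries, 1 mean per group, with Benjamini-Hochberg adjustment over all genes tested and a threshold of 0.05. CPM uses the scaled totals. A gene rose or fell only where it passed. The biological coefficient of variation was 8.76%, and replicates differed by more than sampling noise (chi-square per degree of freedom 2.82 to 16.7). The code was tested on simulated data.

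The members, gene lists, tests and alternatives were chosen with earlier results of these data known. The text names the 10 members, Vprbp, Yap1, Wwtr1, Tead2 to Tead4, Nf2 and Lats1, and of each other list and comparison at most the 5 called genes with the smallest p-values; genes outside this rule were chosen after their values were seen. Titles give replicate numbers 1 to 3 in each group. Deviations of same-numbered libraries correlated above 0.1 in all 3 pairs only between knockdown and control libraries without Activin (0.123, 0.196 and 0.369), so the numbers were taken as pairs there. Ctgf, Cyr61 and Vprbp were matched to RefSeq through the synonyms Ccn2, Ccn1 and Dcaf1. Alternatives were other size factors (RLE), no filter, DESeq2 1.42.0, a replicate block, fits of only the libraries compared, and leaving out libraries.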

Additional observations from a re-analysis of the deposited data

How the results depend on the processing

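Signs were compared for the members, Vprbp, and the cascade, effector, YAP target, SRF and actin, and trophoblast lists, not for all genes tested. No called gene among these changed sign in any alternative. With SB, 5 members were called in each alternative, except 6 without the 3 libraries that lie apart (Tead1 added) and 4 without the first or second SB library. With Activin in control libraries the 2 calls became 1 without the filter on low counts and 0 to 1 when a library was left out. The count stayed at 2 without the 3 libraries that lie apart and under the block in a fit of only those libraries, but there Tead1 was called and Ctgf was not (Ctgf adjusted p = 0.08 and 0.0594). With Activin in knockdown libraries the 1 call became 2 under the replicate block (Ctgf, adjusted p = 0.0322), 2 under the block in a fit of only those libraries (chosen after seeing the data), and 1 to 2 when a library was left out. Against SB, 5 to 6 members were called when a library was left out and 8 in a fit of only those libraries. Without Activin, the knockdown gave 0 called members, but 2 under the replicate block in a fit of only those libraries. The block changed no other member's call in the fit of all libraries except that of Tead1 with Activin in control libraries (adjusted p = 0.0412).

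Counts over all genes moved more. For Activin in control libraries, 705 became 1058 under the replicate block and 265 at the least when a library was left out. For Activin in knockdown libraries, 894 became 373 in a fit of only those libraries and 351 at the least when a library was left out. For the knockdown without Activin, 6 became 10 without the filter, 30 with DESeq2, 18 under the replicate block, 1 in a fit of only those libraries, 76 without the 3 libraries that lie apart, 333 under the block in a fit of only those libraries, and 2 to 37 when a library was left out. For the knockdown with Activin, 6 became 15, 76, 51, 68, 205 and 170 under the same alternatives in that order, and 0 to 21 when a library was left out. The difference of Activin responses had 0 calls, and 1 without the 3 libraries that lie apart. The causes were not tested. Ankrd1 had 5 to 40 counts in a library, which limits the precision of its values.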

Other observations

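Amot, the third angiomotin gene, was at 475.3 CPM in the first Activin-treated knockdown library and at 87.3 and 61.0 CPM in the other 2 of that group. The other 12 libraries lay between 32.4 and 79.6 CPM. The gene was not called in the comparison of Activin-treated with untreated knockdown libraries (log2 difference 1.91 ± 0.65 SE, adjusted p = 0.126 by edgeR's quasi-likelihood test), but DESeq2 called it (1.93, adjusted p = 0.0333). The estimate rested on that library: without it the log2 difference was 0.44 (adjusted p = 0.396). Without all 3 libraries that lie apart it was 0.75 and called (adjusted p = 0.00787), and without the third treated library 2.36 and called (adjusted p = 0.0312). It was chosen after its values were seen. The same library stood apart on the second principal component and held the highest Igfbp3 value of the series, 118.4 CPM.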
